A study of Mus musculus with 78 samples.

Results

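Fibrillar collagen and resting dermal matrix genes were followed in mouse flank tissue through 10 genes: the collagen chains Col1a1, Col1a2, Col3a1, Col5a1 and Col5a2, the proteoglycans Dcn and Lum, and Loxl1, Mfap4 and Cpz. The members were taken by name, and every probe set that the platform annotation gives to 1 of them alone was used, which gave 19 of the 45101 probe sets on the array and 19 of the 34958 with 1 gene symbol. All 10 genes and all 19 probe sets passed the filter on dim signal, a signal above 331 on at least 6 arrays. For Mfap4 and Cpz this rested on the groups in which they were high, since they exceeded that level on 47 and 34 of the 78 arrays, whereas the brightest probe set of each of the other 8 genes exceeded it on all 78.

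Fibrillar collagens are made by fibroblasts as procollagen chains that wind into helices, are modified and folded in the endoplasmic reticulum, and assemble outside the cell into the fibrils that give dermis its strength. Type I collagen is built from Col1a1 and Col1a2 chains, type III from Col3a1 alone, and type V, which sits inside type I fibrils and sets their width, from Col5a1 and Col5a2. Decorin (Dcn) and lumican (Lum) are small leucine-rich proteoglycans that coat fibrils and space them, and both are prominent products of resting dermal fibroblasts. Lysyl oxidase-like 1 (Loxl1) crosslinks elastin, microfibril-associated protein 4 (Mfap4) binds elastic microfibrils, and carboxypeptidase Z (Cpz) is a secreted carboxypeptidase with a domain that binds Wnt proteins.

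The animals in every group were female athymic nude mice, Crl:NU(NCr)-Foxn1nu, aged 4 to 6 weeks, a strain without a normal thymus and hence short of T cells. An adenovirus carrying VEGF-A164 (Ad-VEGF-A164) was injected into the skin of the flank and of the ears, and drives the growth of vessels that stand in for those of tumours. Untreated groups received the virus and no antibody, G6 groups the antibody G6 at 10 mg per kg and DC101 groups the antibody DC101, which blocks mouse VEGFR2, at 20 mg per kg, both given into the peritoneum. The protocol counts both among antibodies against VEGF receptors and gives no target for G6 by itself. Each of these 3 kinds of group was sampled at days 5, 20 and 60, and 8 arrays were labelled control at day 0. There were 8 arrays in each of the 10 groups except DC101 at day 60, which had 6. No group received a virus without VEGF-A164, the labels do not say whether the control flank was left uninjected, and the day may be that of treatment or of harvest. No label says which animal an array came from, and the study speaks of at least 5 animals per group, so some arrays may come from 1 animal and p-values may be too small.

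Levels are log2(signal + 16) of the Affymetrix signal, written below as level, with the SD over arrays. A level says how bright a probe set is and cannot be set against that of another gene or probe set. Differences are on the same log2 scale, tested with limma in 1 model of all 10 groups, and called where the Benjamini-Hochberg adjusted p over 14718 genes was under 0.05. In whole tissue, fewer cells of a type and less RNA per cell cannot be told apart.

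Every array had a trimmed mean signal of 1500, and array medians ran from 455 to 583. Vegfa, which checks the virus, had a level of 10.12 ± 0.51 (SD, n = 8) in control flank, and over 8 untreated arrays each it was 14.11 ± 0.43 on day 5, 12.79 ± 1.32 on day 20 and 10.10 ± 0.26 on day 60. Each of 10 fibroblast marker genes exceeded the filter level on at least 1 array of every group, as skin would, and so did keratinocyte, hair, muscle, fat and mammary markers in control flank. The 3' to 5' signal ratio of Actb, in which a higher value marks shorter RNA, had a median of 1.31 in control flank, 1.88 in untreated tissue at day 60, 2.22 with G6 and 1.3 with DC101 at that day. Some arrays stood apart from their group, among them arrays 51 and 52 of untreated day 20, 21 and 22 of DC101 day 5, and 93 and 94 of DC101 day 60, and values without them stand beside the calls they end or add.

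Start-site sequences were looked at for the members because they move in groups. The RefSeq promoter table (GRCm38.p6) held 4 of the 10 members, Col1a2, Col3a1, Col5a1 and Cpz. The 250 bases before the annotated start are printed for the 3 collagen chains among them, which fell together at day 60 with G6. They are Col1a2 (chr6:4505368-4505617), Col3a1 (chr1:45311288-45311537) and Col5a1 (chr2:27886175-27886424), all on the forward strand and written 5′ to 3′, with matches to 3 promoter motifs in capitals.
Col1a2: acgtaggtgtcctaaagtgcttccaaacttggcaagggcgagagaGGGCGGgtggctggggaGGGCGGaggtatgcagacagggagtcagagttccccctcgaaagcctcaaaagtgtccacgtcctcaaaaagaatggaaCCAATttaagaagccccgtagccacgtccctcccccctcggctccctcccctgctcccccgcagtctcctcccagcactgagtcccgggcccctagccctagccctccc
Col3a1: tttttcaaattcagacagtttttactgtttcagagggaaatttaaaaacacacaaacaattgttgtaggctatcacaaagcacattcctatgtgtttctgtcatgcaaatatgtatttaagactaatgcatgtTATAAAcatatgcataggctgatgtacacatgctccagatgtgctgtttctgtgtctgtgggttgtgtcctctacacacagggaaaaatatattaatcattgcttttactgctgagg
Col5a1: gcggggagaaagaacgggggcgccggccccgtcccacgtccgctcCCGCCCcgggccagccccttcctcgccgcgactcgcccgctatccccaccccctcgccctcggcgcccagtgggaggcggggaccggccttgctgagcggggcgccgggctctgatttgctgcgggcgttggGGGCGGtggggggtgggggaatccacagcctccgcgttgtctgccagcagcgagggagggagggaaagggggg
Each motif was searched on both strands in 300-base windows that reach 50 bases past the start. The CCAAT box was taken as CCAAT. For the GC box, which binds Sp1-type factors, the letters were GGGCGG. The TATA box, a core promoter element, was searched as TATAAA, and no match overlapped another. In Col1a2, CCAAT began at -109, its reverse complement at base 1 after the start, just past the printed stretch, and GGGCGG at -205 and -188. Col3a1 held only TATAAA, at -117, and Col5a1 only GGGCGG, in reverse at -205 and forward at -73. Cpz, whose sequence is not printed, held GGGCGG in reverse at -234. Of the 32851 promoters in the table, 37.4% held CCAAT, 35.7% GGGCGG and 13.6% TATAAA, so no motif was common to the 3 collagen chains, and each is frequent elsewhere. In the same annotation Dcn and Lum are neighbours on chromosome 10, and Col3a1 and Col5a2 on chromosome 1, with 0 protein-coding genes between them in each case.

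The members did not move as a block. In untreated tissue at day 5 the collagen chains of types I and V rose above control while Dcn and Lum fell below it. By day 60 Col1a1, Col5a1 and Col5a2 had dropped from day 20, Dcn and Lum had their highest group means, and the type I chains no longer differed from control beyond the threshold. With the 3' to 5' RNA ratios in the limma fit, both type I chains were called above control at day 60 (adjusted p = 0.042 for Col1a1 and 0.0491 for Col1a2). The Actb ratios of these groups do not overlap (1.21 to 1.5 in control flank, 1.58 to 2.57 in untreated tissue), so that fit cannot tell RNA length and group apart. With G6 or DC101 at day 5 Dcn and Lum rose above untreated tissue. With G6 at day 60 all 5 collagen chains and Loxl1 fell below untreated tissue.

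The type I chain Col1a1 had the largest day 5 rise of the 5 collagen chains among the members. Its level in control flank had a lowest, median and highest of 12.55, 12.86 and 13.80. In untreated tissue these were 14.82, 15.09 and 15.22 at day 5, 14.43, 14.86 and 15.07 at day 20, and 12.65, 13.31 and 14.17 at day 60. All arrays of days 5 and 20 lay above all control arrays, and the day 60 arrays overlapped them. Col1a1 rose by 1.98 (SE 0.24, adjusted p = 1.84e-10), 3.95-fold, on day 5, and 1.75 (adjusted p = 2.52e-08, SE 0.24), 3.36-fold, on day 20. At day 60 the difference was 0.29 (SE 0.24, adjusted p = 0.353), and the fall from day 20 was itself past the threshold at -1.45 (SE 0.24, adjusted p = 3.48e-06). With the RNA ratios in the fit the day 60 difference from control was 0.77 and passed (adjusted p = 0.042), but the Actb ratios of these groups do not overlap.

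**Figure D1:**
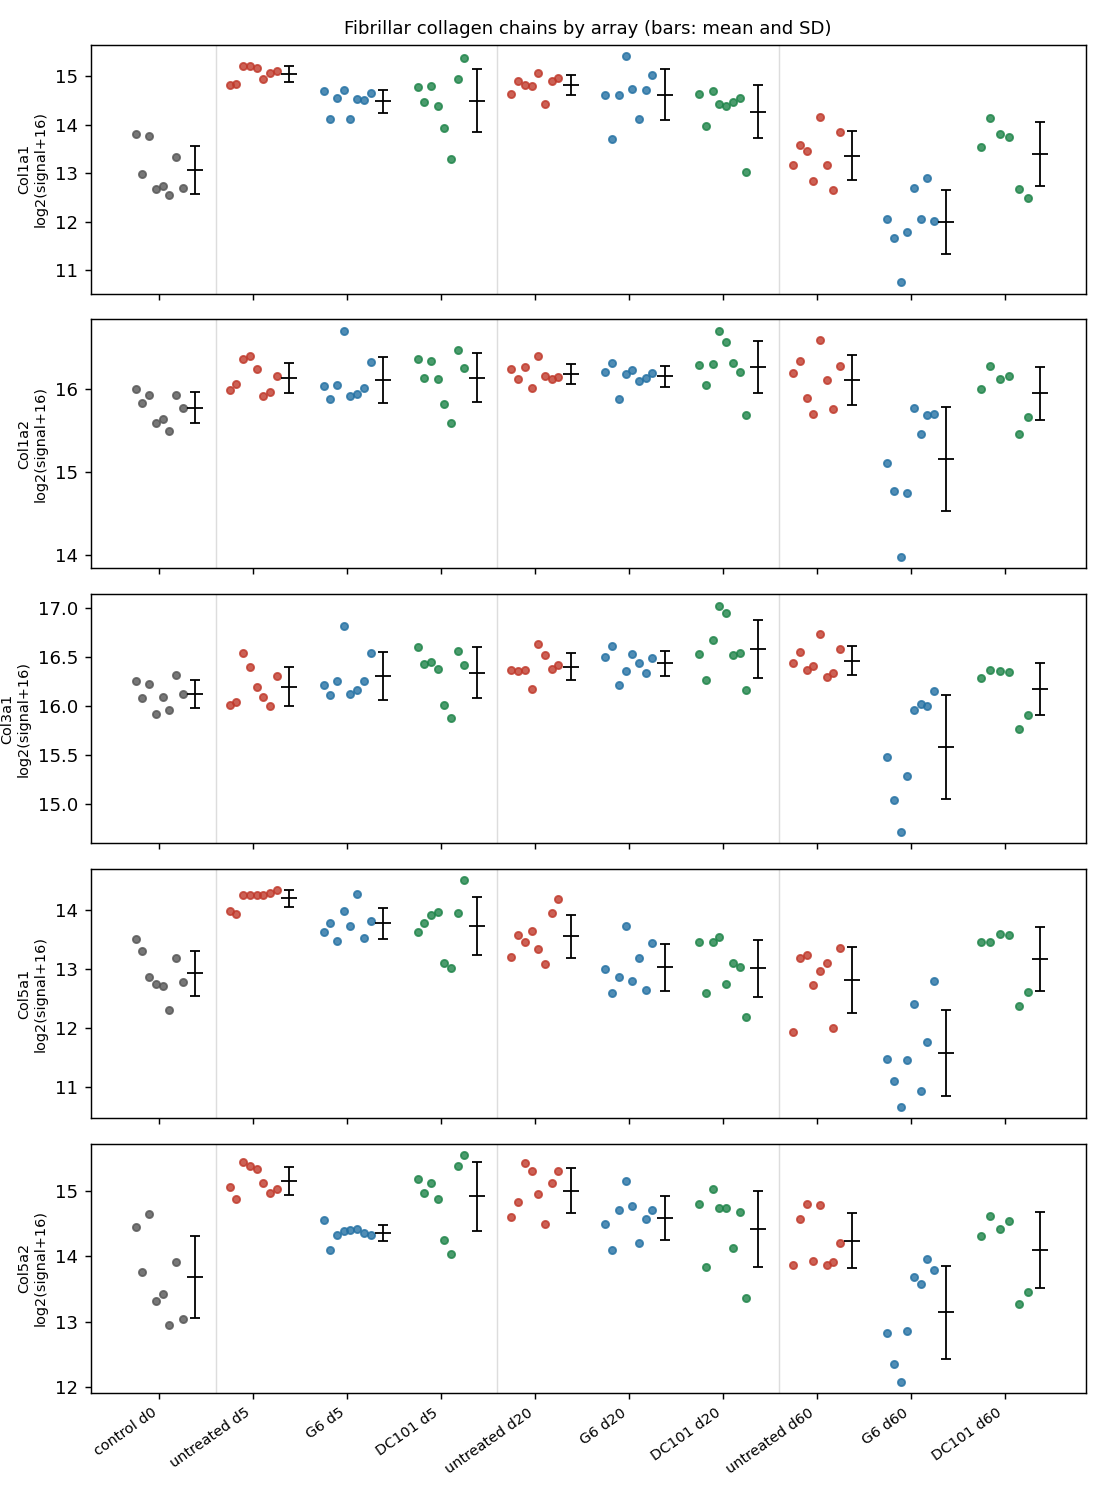
Levels of the 5 collagen chains, log2(signal + 16) of each gene's brightest probe set, on each of the 78 arrays by group (points, coloured grey for control, red for untreated, blue for G6 and green for DC101); the bars are the group mean and SD. Col1a1 in untreated tissue at day 5 (14.82 to 15.22) lies above every control array (12.55 to 13.80), and G6 at day 60 has the lowest mean in all 5 genes.

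Col5a1 and Col5a2, the type V chains, rose with Col1a1. Col5a1 had a lowest, median and highest level of 12.31, 12.82 and 13.50 in control flank, 13.93, 14.25 and 14.34 in untreated tissue at day 5, and 13.08, 13.51 and 14.18 at day 20. The day 5 arrays were apart from control and the day 20 arrays overlapped it. The rise of Col5a1 was 1.27 (adjusted p = 1.98e-06, SE 0.23) for day 5 and 0.63 (adjusted p = 0.0206, SE 0.23) for day 20, and it fell by 0.64 between those days (adjusted p = 0.0327). Col5a2 ran from 12.95 over a median of 13.60 to 14.64 in control flank, from 14.87 over 15.09 to 15.44 at day 5, and from 14.49 over 15.03 to 15.42 at day 20. The level rose by 1.46 (SE 0.23, adjusted p = 1.95e-07) and 1.32 (SE 0.23, adjusted p = 4.23e-06), with 8 of 8 arrays above the control mean at each day. From day 20 to day 60 Col5a1 fell by 0.74 (adjusted p = 0.0109) and Col5a2 by 0.76 (adjusted p = 0.0109). With adjacent arrays averaged in pairs, the rise of Col5a1 at day 20, its fall from day 5 to day 20 and the later fall of Col5a2 were no longer called (adjusted p = 0.0523, 0.0876 and 0.0573). Without untreated arrays 51 and 52 the fall of Col5a1 from day 5 and that of Col5a2 to day 60 had adjusted p = 0.0544 and 0.0806. The fall of Col5a1 from day 5 was also lost with the mean of its probe sets (-0.49, adjusted p = 0.097). In a fit that takes in the RNA ratios it was -0.58 (adjusted p = 0.0832). The falls to day 60 in that fit were -0.35 for Col5a1 (adjusted p = 0.31) and -0.50 for Col5a2 (adjusted p = 0.167).

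Col1a2 and Col3a1 changed little in their brightest probe sets, which are among the brightest on the array. Only 0.287% of probe sets were as bright on average as that of Col1a2 (1450857_a_at) and 0.145% as that of Col3a1 (1427883_a_at). Col1a2 ran from 15.49 over a median of 15.80 to 16 in control flank and from 15.91 over 16.11 to 16.39 in untreated tissue at day 5. Its rises were 0.36 (adjusted p = 0.0419, SE 0.15) on day 5 and 0.41 (adjusted p = 0.0257, SE 0.15) on day 20, with the day 20 arrays apart from control. Neither call held with adjacent arrays averaged (adjusted p = 0.135 and 0.107). The day 5 call was also lost without the filter (adjusted p = 0.0518) and with the RNA ratios in the fit (adjusted p = 0.0803). Col3a1 ran from 15.92 over 16.10 to 16.32 in control flank, from 16 over 16.14 to 16.54 at day 5 and from 16.30 over 16.43 to 16.74 at day 60. Its difference from control was 0.08 (SE 0.13, adjusted p = 0.653) at day 5 and 0.28 (SE 0.13, adjusted p = 0.0774) at day 20, and its rise at day 60 was 0.34 (adjusted p = 0.0332, SE 0.13). The last call was lost with quantile normalization (0.11, adjusted p = 0.504), with adjacent arrays averaged (adjusted p = 0.133) and without untreated array 77 (0.30, adjusted p = 0.0691), whereas the day 5 and day 20 differences passed under quantile normalization (0.33, adjusted p = 0.0144, and 0.48, adjusted p = 0.000515).

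The dimmer probe sets of these genes moved more. For Col1a2, 1423110_at rose by 1.53 on day 5 (adjusted p = 6.18e-08, SE 0.23) and 1.52 on day 20 (adjusted p = 2.55e-07, SE 0.23), and 1446326_at by 1.16 and 1.27. For Col3a1, 1427884_at rose by 0.87 on day 5 (adjusted p = 0.0012, SE 0.23), 1.34 on day 20 (adjusted p = 3.35e-06) and 0.72 on day 60 (adjusted p = 0.0132). These p-values come from a fit of all 26696 filtered probe sets, of which 50.2% were called at day 5, 38.4% at day 20 and 33.0% at day 60. In all 5 collagen genes the brightest probe set showed the smallest rise of its gene at both day 5 and day 20. Against G6 at day 60 that held for 1 of the 5, Col3a1. Whether the top of the signal range limits the brightest probe sets was not tested.

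**Figure D2:**
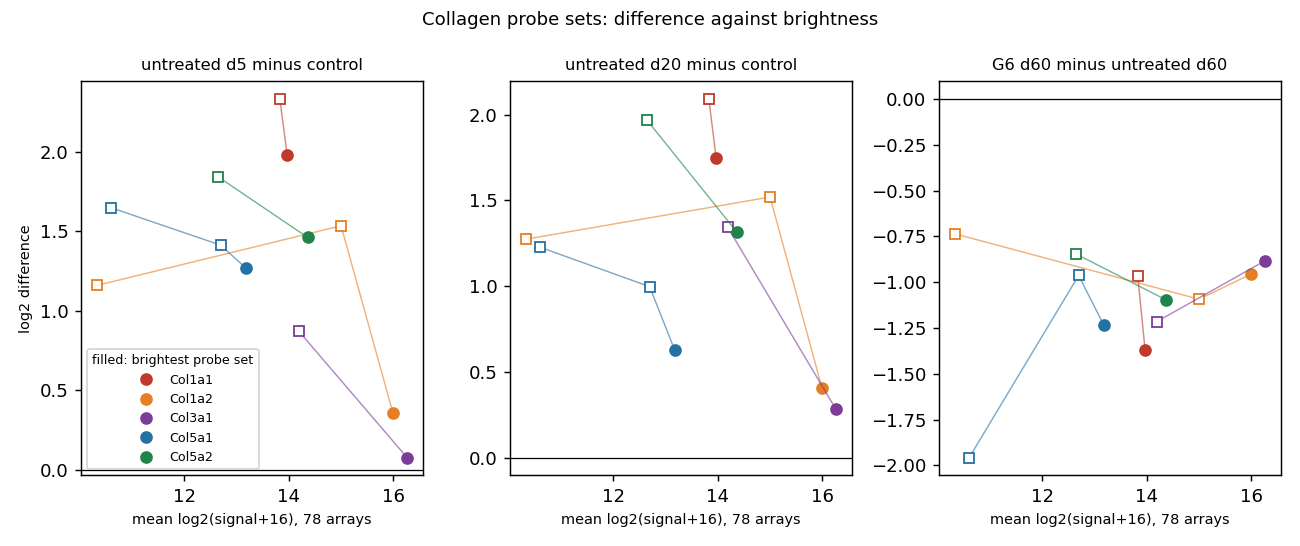
Log2 difference of every collagen probe set against its mean level over 78 arrays, for untreated day 5 and day 20 against control and for G6 against untreated tissue at day 60; filled circles are each gene's brightest probe set, open squares its others, joined by a line within a gene. The brightest probe sets of Col1a2 and Col3a1, at 15.99 and 16.26, sit near the bottom in the first panel, at 0.36 and 0.08, while their other probe sets lie between 0.87 and 1.53.

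Dcn and Lum went the other way at day 5. Dcn had a lowest, median and highest level of 16.14, 16.30 and 16.40 in control flank and of 14.57, 15.30 and 16.16 in untreated tissue at day 5. All 8 day 5 arrays were below the control mean, and only the highest of them reached the control range. Dcn fell by 0.998 (SE 0.15, adjusted p = 4.91e-08), 2.00-fold, and its dimmer probe set 1441506_at by 0.82 (SE 0.19, adjusted p = 0.000177). Lum ran from 14.31 over 14.67 to 15.08 in control flank and from 11.55 over 13.27 to 14.72 at day 5, where its SD was 1.01. It fell by 1.57 (SE 0.36, adjusted p = 0.000165), 2.96-fold, with 7 of 8 arrays below the control mean.

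Both genes then climbed in untreated tissue. Dcn ran from 15.73 over 16.14 to 16.46 at day 20 and from 16.35 over 16.79 to 17.05 at day 60. The level rose by 0.86 (SE 0.15, adjusted p = 1.38e-05) from day 5 to day 20 and by 0.63 (SE 0.15, adjusted p = 0.000972) from day 20 to day 60, when it stood 0.49 (SE 0.15, adjusted p = 0.00772) above control. The dimmer probe set was 0.51 above control at day 60 (adjusted p = 0.0276), but under quantile normalization the 0.49 of the brightest became 0.22 (adjusted p = 0.203) and the 0.63 became 0.16 (adjusted p = 0.422), and with adjacent arrays averaged the 0.49 had an adjusted p of 0.051. Lum ran from 12.43 over 14.71 to 15.62 at day 20, where arrays 51 and 52 were the lowest at 13.16 and 12.43, and from 15.05 over 15.63 to 15.81 at day 60. The level rose by 1.21 (SE 0.36, adjusted p = 0.0107) and then by 1.19 (SE 0.36, adjusted p = 0.0104). Without arrays 51 and 52 the second rise was 0.66 (adjusted p = 0.228), and with adjacent arrays averaged neither was called (adjusted p = 0.0906 and 0.0835). In a fit of the compared groups alone, and with the RNA ratios in the fit, the first rise was not called (adjusted p = 0.0639 and 0.0583).

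Fibroblast marker genes moved with Dcn and Lum at day 5. Of 10 markers, 7 fell and 2 rose against control at day 5, with a median difference of -0.76 beside 0.05 over all genes. Their summed level ran from 16.75 to 17.68 in untreated tissue at day 5 and from 17.74 to 18.39 in control flank, without overlap. At day 60 it ran from 18.21 to 18.69. The markers include Dpt and Gsn, which are among the genes most like Dcn over the arrays, and their part in the changes of Dcn and Lum was not tested. Of all genes, 24.9% fell and 27.9% rose in this comparison. Schwann cell markers fell in 4 of 4, skeletal muscle markers in 7 of 8, mammary markers in 6 of 7 and adipocyte markers in 4 of 6 at day 5. The mammary markers had the lowest median difference of these lists, -4.15, and their summed level ran from 14.17 to 17.89 in control flank and from 12.26 to 13.33 at day 5. Macrophage markers rose in 7 of 7, endothelial markers in 8 of 8, pericyte and smooth muscle markers in 6 of 8 and keratinocyte markers in 5 of 8.

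**Figure D3:**
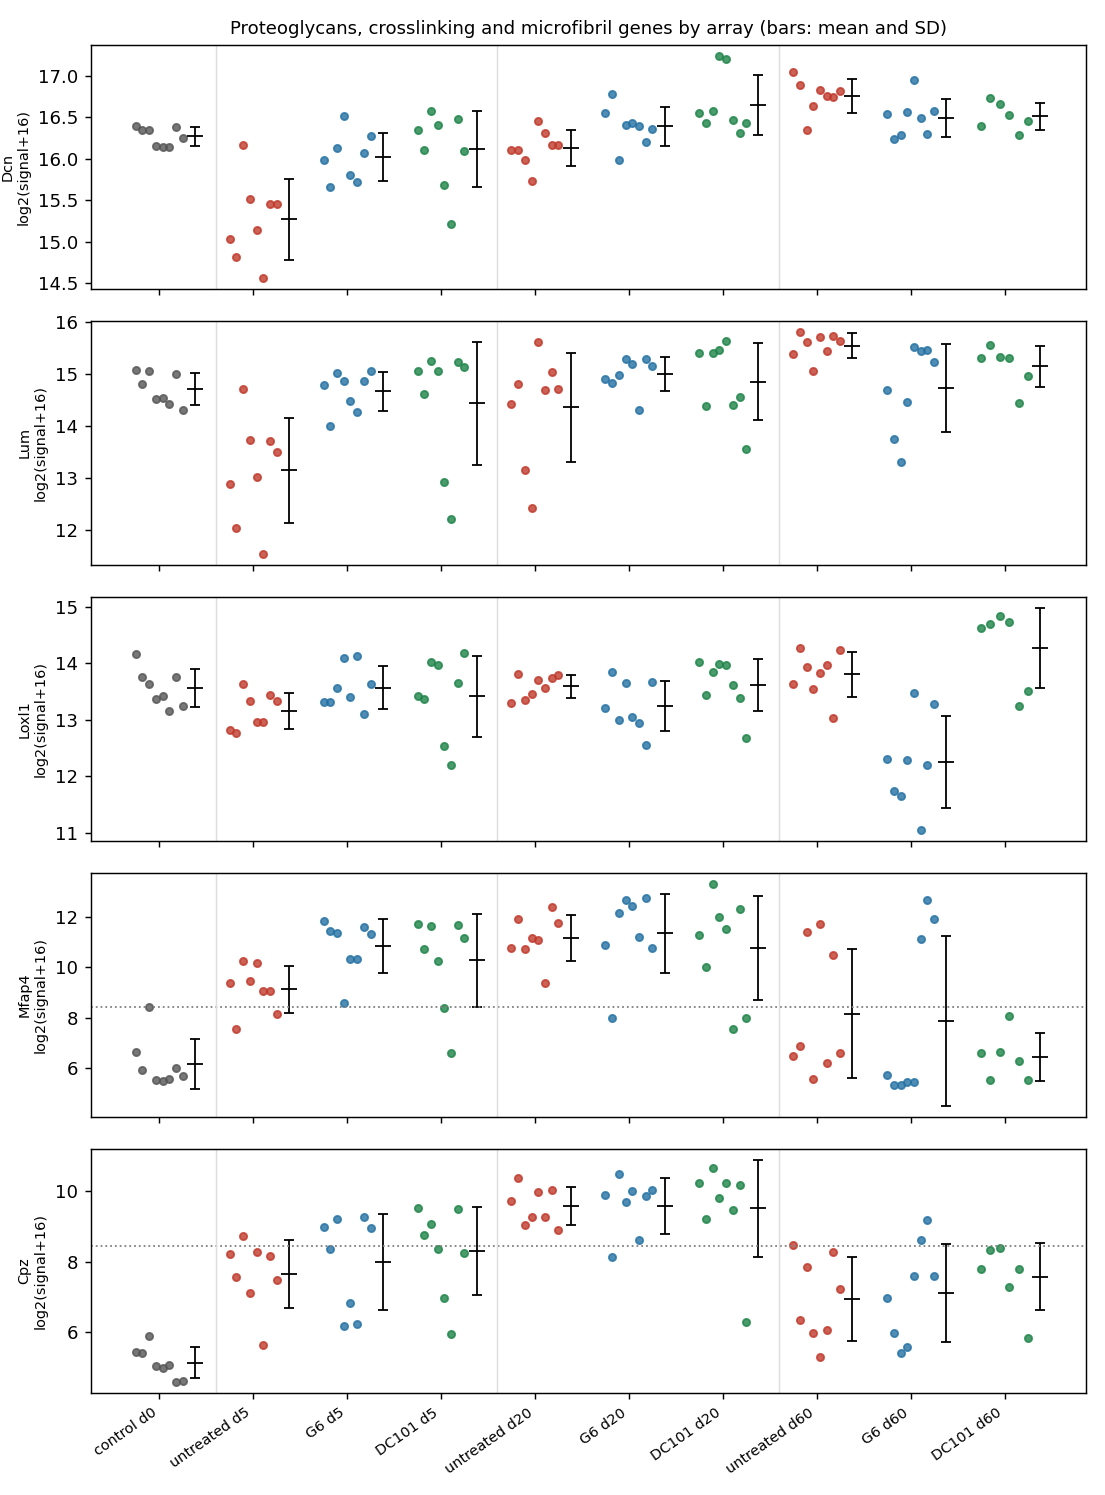
Levels of Dcn, Lum, Loxl1, Mfap4 and Cpz, log2(signal + 16) of the brightest probe set, on each array by group (points, with colours by treatment); the bars are the group mean and SD, and the dotted line marks the filter level for Mfap4 and Cpz. Lum in untreated tissue at day 5 spreads from 11.55 to 14.72, and Mfap4 at day 60 falls into a low and a high set of arrays with G6 (5.32 to 5.71 and 11.15 to 12.69).

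Loxl1 did not differ from control in untreated tissue beyond the threshold. It had a lowest, median and highest level of 13.16, 13.53 and 14.17 in control flank, 12.77, 13.14 and 13.64 at day 5, 13.29, 13.63 and 13.81 at day 20, and 13.03, 13.88 and 14.26 at day 60. The 4 ranges overlap. The differences were -0.41 (SE 0.25, adjusted p = 0.164), 0.03 (adjusted p = 0.946) and 0.24 (adjusted p = 0.471). In a fit of the compared groups alone and with array weights, the day 5 difference passed the threshold (adjusted p = 0.0294 and 0.0245).

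Mfap4 and Cpz were below the filter level on all 8 control arrays, so only bounds can be given there. Mfap4 in control flank ran from 5.47 over 5.80 to 8.43, and in untreated tissue from 7.54 over 9.23 to 10.24 at day 5 and from 9.39 over 11.14 to 12.40 at day 20. The fit called the rise at both days (adjusted p = 0.00366 and 5.15e-06). Set against the filter level, Mfap4 was at least 1.615-fold higher at day 5, when 2 of 8 arrays were still below that level, and at least 6.61-fold higher at day 20. Cpz ran from 4.58 over 5.03 to 5.88 in control flank, from 5.61 over 7.85 to 8.73 at day 5 and from 8.89 over 9.49 to 10.38 at day 20. At day 20 it was at least 2.19-fold higher than in control flank (adjusted p = 4.75e-10). No fold is given for Cpz at days 5 and 60, when 7 of 8 untreated arrays were below the filter level. From day 20 to day 60 Mfap4 fell (adjusted p = 0.0093), with 0 of 8 arrays below the filter level at day 20 and 5 of 8 at day 60. Once RNA ratios entered the fit, the fall of Mfap4 was not called (adjusted p = 0.0589).

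Mfap4 was divided within groups at day 60. In untreated tissue arrays 75, 77 and 79 stood at 11.41, 11.72 and 10.51 and the other 5 at 5.56 to 6.87. With G6, arrays 86, 87 and 88 stood at 11.15, 12.69 and 11.94 and the other 5 at 5.32 to 5.71, an SD of 3.38. DC101 arrays ran from 5.52 to 8.08, all below the filter level. The gene most like Mfap4 over the 78 arrays was Fmod, a fibril-binding proteoglycan (Pearson r = 0.85), followed by C1qtnf3 (0.84) and Col8a2 (0.83), and these r values describe arrays that share groups.

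Counts for untreated tissue are given over the 8 members that were above the filter level on every array, since Mfap4 and Cpz passed the filter through the groups in which they were high. In untreated tissue against control 6 of the 8 were called at day 5, 4 higher and 2 lower, beside 52.8% of all genes. At day 20 there were 4, all higher, beside 41.2% of genes called and 22.7% called higher, and at day 60 there were 2, Col3a1 and Dcn, both higher, beside 35.6% and 18.8%. At day 60 Col5a2 stood at 0.55 (adjusted p = 0.0559) and Lum at 0.83 (adjusted p = 0.0631) over control. Leaving out arrays of other groups does not change these differences, only the spread that all groups share in the fit. In such fits Col5a2 passed without arrays 21 and 22 (adjusted p = 0.0457), 93 and 94 (adjusted p = 0.0455) or array 83 of G6 day 60 (adjusted p = 0.047). Lum passed without arrays 51 and 52 (adjusted p = 0.0411) or 21 and 22 (adjusted p = 0.0323), and Col1a2, at 0.33, without array 83 (adjusted p = 0.0441). Between days, 3 of the 8 were called from day 5 to day 20 (20.2% of all genes) and 5 from day 20 to day 60 (25.7%). Their median difference from control was 0.22 at day 5, 0.34 at day 20 and 0.34 at day 60, beside 0.05, 0.05 and 0.08 over all genes. The groups share control arrays, so the 3 comparisons with control are not independent of each other.

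G6 at day 5 raised Dcn and Lum over untreated tissue and lowered Col5a2. Dcn ran from 15.66 over 16.03 to 16.52 with G6, Lum from 14.01 over 14.82 to 15.05, and Col5a2 from 14.09 over 14.36 to 14.55. The Col5a2 arrays lay below all untreated arrays of that day, while those of Dcn and Lum overlapped them. Dcn rose by 0.75 (SE 0.15, adjusted p = 7.31e-05) and Lum by 1.52 (SE 0.36, adjusted p = 0.000704), each with 8 of 8 arrays above the untreated mean, and Col5a2 fell by 0.79 (SE 0.23, adjusted p = 0.00624). Col1a1 also lay wholly below the untreated range, at 14.11 to 14.71, but with -0.57 (SE 0.24) it did not pass (adjusted p = 0.0667), although it did under quantile normalization (-0.66, adjusted p = 0.0307) and in a fit of these groups alone (adjusted p = 0.00022). Dcn, Lum and Col5a2 were the 3 of 10 members called, beside 31.8% of all genes. In the fit of these groups alone, which called 39.9% of all genes, Col5a1 was also lower (-0.42, adjusted p = 0.00323). There Mfap4 (adjusted p = 0.00495) and Loxl1 (0.41, adjusted p = 0.0462) were higher. Col5a1 passed too with array weights (adjusted p = 0.0215) and the mean of its probe sets (adjusted p = 0.033). Mfap4 passed with array weights (adjusted p = 0.00921) and the RNA ratios (adjusted p = 0.0176). The dimmer Dcn probe set rose by 1.21 (SE 0.19, adjusted p = 6.06e-07), beside 31.0% of probe sets called. Among dimmer collagen probe sets, 1416741_at of Col5a1 lay wholly below untreated tissue (10.47 to 11.43 against 11.49 to 11.98). So did 1446326_at of Col1a2 (9.97 to 10.56 against 10.67 to 11.24), while 1427884_at of Col3a1 had a higher mean with G6 (14.77 against 14.31).

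DC101 at day 5 raised the same proteoglycans, Dcn by 0.85 (SE 0.15, adjusted p = 4.19e-05) and Lum by 1.29 (SE 0.36, adjusted p = 0.0114), 2 of 10 members beside 11.8% of all genes called and 4.65% called higher. Before adjustment 4 members had a limma p under 0.05, beside 3897 of all genes. Besides Dcn and Lum these were Col1a1 and Col5a1, both lower with DC101. Their means were 14.5 against 15.05 and 13.73 against 14.19 in untreated tissue. Dcn ran from 15.22 over 16.23 to 16.58 and Lum from 12.22 over 15.06 to 15.24. Arrays 21 and 22 were the lowest in both genes, with Lum at 12.93 and 12.22, and the other 6 Lum arrays lay between 14.62 and 15.24. The Lum call was lost with adjacent arrays averaged (adjusted p = 0.104), in a fit of these groups alone (adjusted p = 0.0691) and with the RNA ratios as covariates (1.05, adjusted p = 0.0765). No member was called between DC101 and G6 at day 5 in the limma fit (0 of 10, beside 11.5% of all genes), with 1 at an unadjusted p under 0.05, Col5a2, 0.56 higher with DC101 (95% interval 0.09 to 1.03). Without arrays 21 and 22 that difference was 0.82 (adjusted p = 0.0182), and the dimmer Dcn probe set was 0.67 lower with DC101 than with G6 (-0.67, adjusted p = 0.00917, beside 13.8% of probe sets).

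Fibroblast markers again moved with the proteoglycans, 6 of 10 higher with G6 at day 5 and 4 of 10 with DC101. Their summed level ran from 17.60 to 18.38 with G6 and from 16.90 to 18.17 with DC101, against 16.75 to 17.68 in untreated tissue. Their part in the difference was not tested. Schwann cell markers moved in the same direction, 4 of 4 higher with G6 and 3 of 4 with DC101. With G6, 5 of 8 skeletal muscle and 4 of 8 keratinocyte markers were also higher, while 8 of 8 endothelial, 6 of 8 pericyte and smooth muscle and 2 of 7 hair markers were lower. With DC101, 2 of 6 adipocyte markers were higher, 2 of 8 pericyte and smooth muscle markers were lower, and 0 of 8 skeletal muscle, keratinocyte or endothelial markers were called by limma, with median differences of 1.06, 0.65 and -0.62.

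At day 20 few members differed between antibody and untreated tissue beyond the threshold. With G6 the limma fit called 0 of 10, beside 10.0% of all genes, and 1 was under 0.05 before adjustment, Col5a1 at -0.52 (95% interval -0.97 to -0.07). The intervals of the other members reached from -0.88 at the low end of Col5a2 to 1.35 at the high end of Lum, leaving out Mfap4 and Cpz, which were wider. With DC101, Dcn alone was called, 0.52 higher (SE 0.15, adjusted p = 0.021), 1 of 10 beside 7.68% of all genes called and 2.45% called higher. Its arrays ran from 16.31 over 16.51 to 17.24 and overlapped those of untreated tissue. The call was lost without untreated arrays 51 and 52 (0.43, adjusted p = 0.2) and with quantile normalization (0.15, adjusted p = 0.537). It was also lost with adjacent arrays averaged (adjusted p = 0.142) and in a fit of these groups alone (adjusted p = 0.0793). Before adjustment 4 members had a limma p under 0.05 with DC101 against untreated tissue, beside 3395 of all genes. Besides Dcn these were Col1a1, Col5a1 and Col5a2, all lower with DC101. Their means were 14.27 against 14.82, 13.01 against 13.55 and 14.41 against 15 in untreated tissue. Col5a2 passed with quantile normalization (-0.75, adjusted p = 0.034) and with the mean of probe sets (-0.76, adjusted p = 0.0439). No other alternative called it. DC101 against G6 in the limma fit called 0 of 10 members beside 0.245% of all genes. In that comparison 0 members had an unadjusted p under 0.05.

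**Figure D4:**
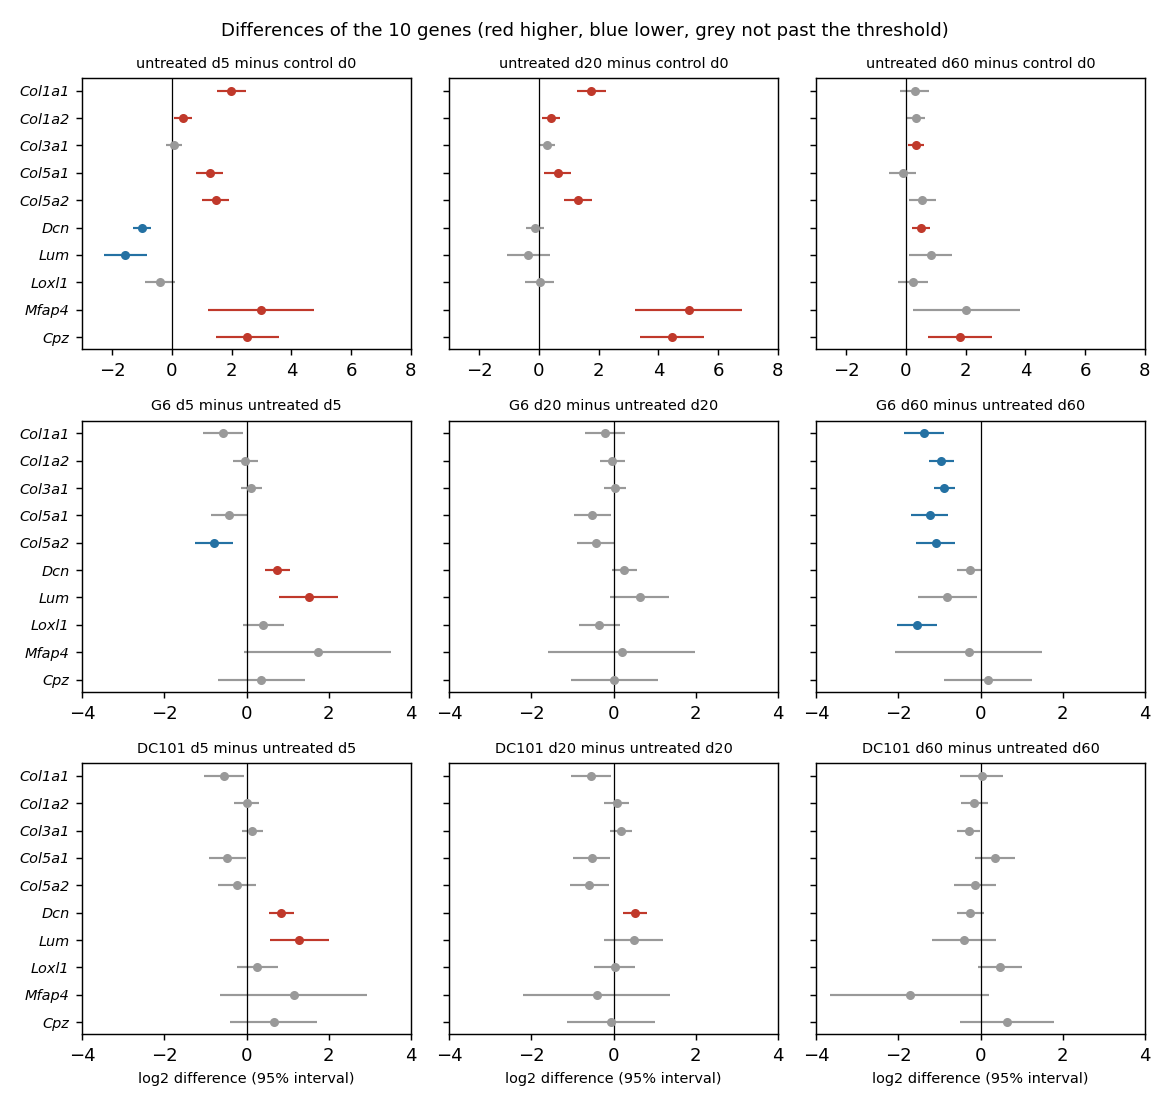
Log2 differences with 95% intervals of the 10 genes in 9 comparisons: untreated tissue against control (upper row), G6 against untreated (middle) and DC101 against untreated (lower) at days 5, 20 and 60; red is higher, blue lower and grey not past the threshold, and the upper row has a wider axis; for Mfap4 and Cpz, below the filter level in several groups, the plotted values are fitted differences and no measured folds. G6 at day 60 shows the 5 collagen chains and Loxl1 between -0.88 and -1.55, and DC101 at day 60 shows no call.

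G6 at day 60 lowered the collagen chains and Loxl1 together. Col1a1 ran from 10.75 over 12.04 to 12.90 against 12.65 over 13.31 to 14.17 in untreated tissue, and fell by 1.37 (SE 0.24, adjusted p = 0.00017), 2.59-fold. Col3a1 ran from 14.71 over 15.72 to 16.15 against 16.30 over 16.43 to 16.74, a gap with no overlap, and fell by 0.88 (SE 0.13, adjusted p = 9.37e-06). Loxl1 ran from 11.06 over 12.24 to 13.48 against 13.03 over 13.88 to 14.26, and fell by 1.55 (SE 0.25, adjusted p = 3.84e-05), 2.93-fold. In all 6 called genes every G6 array lay below the untreated mean. Col1a2 fell by 0.96 (SE 0.15, adjusted p = 3.84e-05), Col5a1 by 1.23 (SE 0.23, adjusted p = 0.000222) and Col5a2 by 1.09 (SE 0.23, adjusted p = 0.00106).

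These 6 of the 8 members above the filter level throughout, 6 lower and 0 higher, stood beside 11.9% of all genes called and 9.30% of all genes called lower. The median difference of the 8 was -1.03, and that of all genes -0.03. Dcn (-0.27, adjusted p = 0.246) and Lum (-0.81, adjusted p = 0.13) did not pass, nor did Mfap4 and Cpz, which were below the filter level on most arrays of both groups. Of the 9 other probe sets of the members, 8 fell too, beside 10.5% of probe sets called in either direction: 1423110_at of Col1a2 by 1.09 (adjusted p = 0.00116), 1427884_at of Col3a1 by 1.22 (adjusted p = 0.000372), and 4 more by 0.74 to 0.97. For the other two, 1416741_at of Col5a1 and 1436063_at of Loxl1, no size is given, because 3 and 5 of the 8 G6 arrays were below the filter level. The exception was the dimmer Dcn probe set, at -0.30 (adjusted p = 0.312).

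RNA length and other cell types moved with the fall at day 60. The Actb ratio ran from 1.81 to 3.03 with G6, from 1.58 to 2.57 in untreated tissue and from 1.17 to 1.56 with DC101. When the Actb and Gapdh ratios entered the fit, 3 members were still called in G6 against untreated tissue, Col1a2, Col3a1 and Loxl1, beside 0.204% of all genes. Col1a1 then stood at -1.06 (adjusted p = 0.0539), Col5a1 at -0.86 (adjusted p = 0.0785) and Col5a2 at -0.92 (adjusted p = 0.0823). Fibroblast markers fell in 6 of 10 (median -0.88), macrophage markers in 6 of 7, Schwann cell markers in 4 of 4, pericyte and smooth muscle markers in 4 of 8 and endothelial markers in 1 of 8. These counts come from the fit without the ratios, in which 9.30% of all genes fell. The summed fibroblast level ran from 17.21 to 18.53 with G6 and from 18.21 to 18.69 in untreated tissue, and the markers' part in the fall was not tested.

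**Figure D5:**
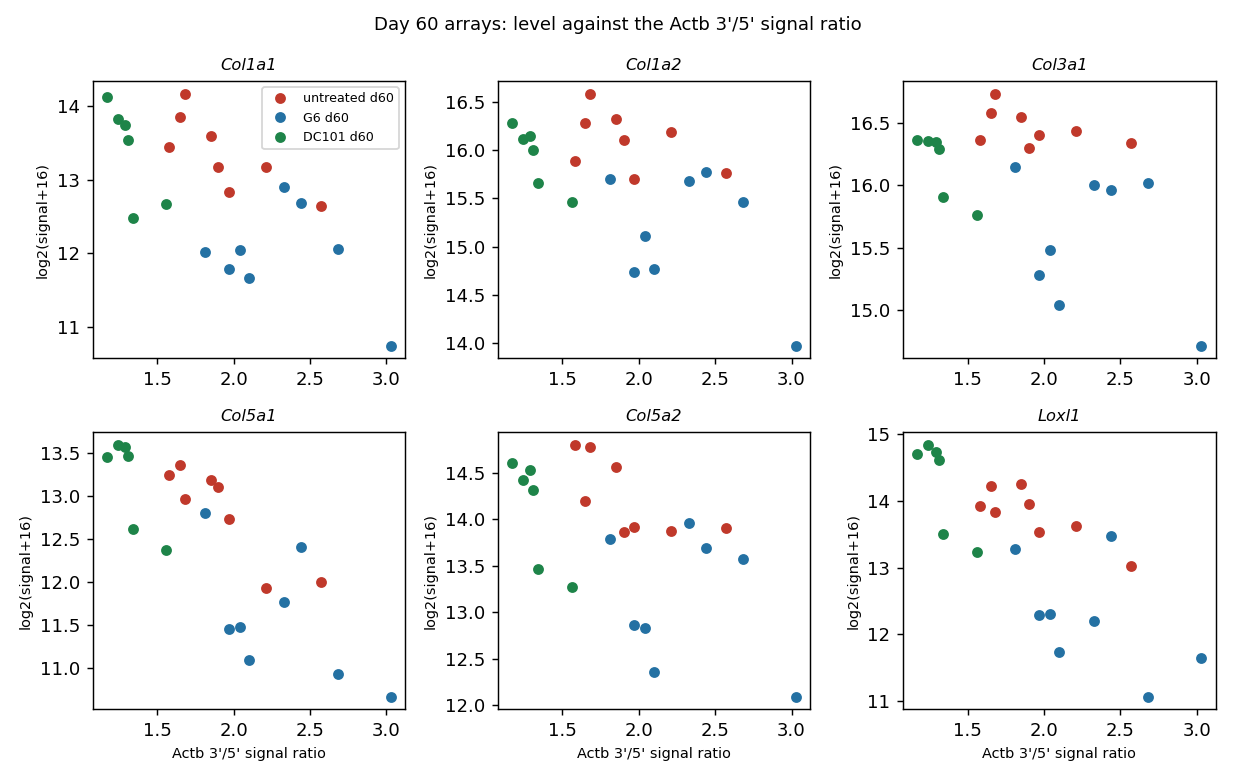
Levels of the 5 collagen chains and Loxl1, log2(signal + 16), against the 3' to 5' Actb signal ratio of the same array, for the 22 arrays of day 60 (red untreated, blue G6, green DC101). DC101 arrays (ratios 1.17 to 1.56) and G6 arrays (1.81 to 3.03) do not overlap in the ratio, and G6 array 83 has the lowest Col1a1 level, at 10.75.

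DC101 at day 60 had 0 of 10 members called against untreated tissue in the limma fit, beside 11.6% of all genes, with 1 at an unadjusted p under 0.05, Col3a1 at -0.29 (95% interval -0.57 to -0.01). Loxl1 ran from 13.24 over 14.66 to 14.84, in which arrays 93 and 94 were the lowest at 13.24 and 13.51. Without those arrays Loxl1 was 0.92 higher than in untreated tissue (adjusted p = 0.0163) and Col5a1 0.70 higher (adjusted p = 0.0493), against 0.47 and 0.36 with them. The dimmer Dcn probe set rose by 0.61 (SE 0.20, adjusted p = 0.0363, beside 12.4% of probe sets), where the brightest stood at -0.25 (adjusted p = 0.321), so the probe sets of Dcn disagree here.

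Set against G6 at day 60, DC101 was higher in the same 6 genes, Col1a1 by 1.41 (SE 0.26, adjusted p = 2.37e-05), Col1a2 by 0.80, Col3a1 by 0.59, Col5a1 by 1.60, Col5a2 by 0.96 and Loxl1 by 2.03 (SE 0.27, adjusted p = 9.92e-08). All 6 DC101 arrays lay above the G6 mean in each of them, and the ranges overlapped in each. The 6 members stood beside 40.4% of all genes called and 21.9% of all genes called higher with DC101. A limma fit that also held the RNA ratios called 0 members and 0 of 14718 genes, and Loxl1 stood at 1.08 (adjusted p = 0.186). Since the Actb ratios of these groups do not overlap, RNA length and antibody cannot be told apart in this comparison.

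Against control flank, which these comparisons share, 3 of the same 8 members were called with G6 and 4 with DC101 at day 5, all higher, beside 41.2% and 46.0% of all genes. At day 20, 3 were higher with G6, beside 18.7% of all genes called higher, and 5 with DC101, beside 30.5% called in either direction. At day 60 with G6 the 5 collagen chains and Loxl1 stood below control, by -0.54 for Col3a1 and Col5a2 to -1.35 for Col5a1, 6 of 8 beside 48.7%. The Actb ratios of these groups do not overlap (1.81 to 3.03 with G6, 1.21 to 1.5 in control flank). RNA length and group cannot be told apart there, and no fit with the ratios was made for this comparison. With DC101 at day 60 Loxl1 was called among the 8 (0.71, adjusted p = 0.0456), beside 22.2%, while Cpz was below the filter level on every array of both groups. From day 20 to day 60 the 5 collagen chains and Loxl1 fell with G6, 6 of 8 beside 14.3% of all genes called lower, with a median of -0.997 over the 8. Here too the Actb ratios do not overlap (1.18 to 1.8 at day 20, 1.81 to 3.03 at day 60). RNA length and day cannot be told apart, and no fit with the ratios was made. With DC101 2 of the 8 fell, beside 9.46% of all genes called in either direction.

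A test of the change itself was made for each antibody effect between days. The G6 effect on Col3a1 was 0.92 lower at day 60 than at day 20 (-0.92, adjusted p = 0.0166), 1 of 10 members beside 0.0747% of all genes. Before adjustment 8 of 10 members, all but Mfap4 and Cpz, had a p under 0.05 in that test, each lower, beside 1630 of 14718 genes in either direction. The median over those 8 was -0.92 beside -0.05 over all genes. The DC101 effect on Col5a1 was 0.90 higher (adjusted p = 0.0475) and that on Dcn 0.77 lower (-0.77, adjusted p = 0.0107), 2 of 10 beside 18.2%. From day 5 to day 20 the limma fit called 0 members for either antibody, beside 9.19% of all genes for G6 and 1.80% for DC101, with 2 members under an unadjusted p of 0.05 for G6, Dcn and Loxl1, both lower, and 0 for DC101. Under 16 alternatives the Col3a1 call held in 10, the Col5a1 call in 9 and the Dcn call in 13.

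The pathway lists that follow are read against the share of all 14718 genes called. Against control, 27.9% rose and 24.9% fell in untreated tissue at day 5, 22.7% and 18.5% at day 20, and 18.8% rose at day 60. Against untreated tissue with G6, 31.8% of all genes were called and 16.8% rose at day 5, 6.03% fell at day 20 and 9.30% fell at day 60. With DC101, 4.65% rose and 7.11% fell at day 5, 5.24% fell at day 20, and 4.65% rose and 6.91% fell at day 60.

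Genes that make and finish collagen were followed through a list of 17 measured enzymes and chaperones. In untreated tissue 12 rose and 1 fell at day 5 and 11 rose and 1 fell at day 20 against control. Plod1, a lysyl hydroxylase, rose by 1.53 (SE 0.21, adjusted p = 2.32e-09) at day 5, when P4ha3, a prolyl hydroxylase subunit, was also called but lay below the filter level on 7 of 8 control arrays. With G6 9 fell at day 5, 4 at day 20 and 8 at day 60, and with DC101 8, 5 and 1, while 1 rose with DC101 at day 60. Serpinh1, the collagen chaperone of the endoplasmic reticulum, fell with G6 by 1.43 on day 5 (SE 0.22, adjusted p = 5.38e-07) and fell by 1.46 on day 60 (adjusted p = 1.28e-05, SE 0.22). Between DC101 and G6 at day 60, 11 were higher with DC101 and 1 lower, where 21.9% of all genes were higher and 18.5% lower.

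Outside the cell, 9 genes of propeptide removal and crosslinking were measured. Against control 6 rose and 1 fell at day 5: Lox, the crosslinking lysyl oxidase, rose by 2.06 (SE 0.28, adjusted p = 4.85e-09) and Pcolce2, an enhancer of propeptide removal, fell by 2.40 (SE 0.35, adjusted p = 2.84e-08). Pcolce2 was also among the 3 genes most like Dcn over the arrays (r = 0.86), and it rose by 1.74 (adjusted p = 8.74e-05) with G6 and by 1.61 (adjusted p = 0.00105) with DC101 at day 5. With G6 at day 60, 4 of 9 fell, among them Pcolce by 1.13 (adjusted p = 0.0025) and Sparc, a collagen-binding protein, by 1.07 (adjusted p = 3.32e-06).

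Of 11 other collagens of the fibril and its surface, 7 rose and 1 fell against control at day 5 and 7 rose at day 20. Col12a1 rose by 3.29 (SE 0.31, adjusted p = 5.5e-14) and Col5a3, the remaining type V chain, by 1.73 (SE 0.20, adjusted p = 6.29e-11) at day 5. With G6 at day 5, 2 rose and 2 fell: Col12a1 fell by 1.38 (adjusted p = 0.000449), and Col24a1 was higher (adjusted p = 3.3e-06) but below the filter level on all 8 untreated arrays and 4 of 8 G6 arrays. At day 20 5 fell with DC101, with Col12a1 at -1.65 (adjusted p = 0.000471) and Col5a3 at -1.18 (adjusted p = 0.000158), and 2 with G6. At day 60 5 fell with G6, with Col6a2 at -1.28 (adjusted p = 0.000165) and Col14a1 at -1.27 (adjusted p = 0.000919).

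Among 10 other leucine-rich proteoglycans 3 rose and 2 fell at day 5 against control, and 6 rose at each of days 20 and 60. Bgn, biglycan, rose by 2.31 (SE 0.25, adjusted p = 2.31e-12) at day 5, when Dcn and Lum fell. With G6 at day 5, 6 rose, among them Fmod by 2.12 (adjusted p = 0.0057) and Kera (adjusted p = 0.0084), for which no size is given because all 8 untreated arrays and 3 of 8 G6 arrays were below the filter level, and with DC101 3 rose, among them Omd by 1.40 (adjusted p = 0.00116) and Ogn by 1.195 (adjusted p = 0.00223). With G6 at day 60, 3 fell.

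Of 13 elastic fibre and microfibril genes, 3 rose and 5 fell at day 5, a share near the 52.8% of all genes called, and 8 rose at day 20 against control, with Fbn2 up by 2.54 (SE 0.30, adjusted p = 5.24e-11) and 2.62 (SE 0.30, adjusted p = 1.39e-10). With G6 at day 60, 7 of 13 fell, among them Mfap5 by 1.39 (adjusted p = 0.00069) and Emilin1 (adjusted p = 0.000689), which was below the filter level on 6 of 8 G6 arrays. Of 12 genes of collagen breakdown 5 rose and 2 fell at day 5, again near that share, with the collagenase Mmp13 at least 6.57-fold higher than control, where all 8 arrays were below the filter level (adjusted p = 7.54e-13), and 4 fell with G6 at day 60. Of 12 TGF-beta and fibrogenic genes 7 rose at day 5, with Ccn2 up by 3.15 (SE 0.35) and Tgfb1 by 2.35 (SE 0.19), 5 fell with G6 and 4 with DC101 at that day. Of 8 wound matrix genes 6 rose at day 5, with Tnc up by 3.75 (SE 0.30), and 2 fell with G6 at day 60.

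Among the members, likeness over the 78 arrays was highest between collagen chains and between the proteoglycans. Col1a2 and Col3a1 had a Pearson r of 0.95 (Spearman rho 0.90), Col1a1 and Col5a2 of 0.92 (rho 0.90), Dcn and Lum of 0.84 (rho 0.75) and Mfap4 and Cpz of 0.76 (rho 0.76). Col1a1 and Dcn had an r of -0.32 (rho -0.39) over all arrays and 0.36 after group means were taken out. Genes outside the set that were most like Col1a1 were Col6a2, Sparc and Col6a1 (r = 0.93 each), those most like Col1a2 were Sparc (0.84), Cavin1 (0.82) and Dpysl2 (0.80), and those most like Col3a1 were Crip1 (0.77), Cavin1 (0.77) and Sparc (0.74). For Col5a1 they were Tm6sf1 (0.92), Fkbp9 (0.91) and Col6a1 (0.91), and for Col5a2 Col6a3 (0.94), Ppic (0.94) and Col6a1 (0.93). For Dcn they were Gsn (0.92), Dpt (0.88) and Pcolce2 (0.86), and for Lum Mmp2 (0.83), Il33 (0.83) and Dpt (0.81). Loxl1 was most like Tgfbr2, Ndn and Serpinf1 (0.90 each) and Cpz most like Itgbl1 (0.75), Ctsk (0.74) and Tnmd (0.74). Arrays of a group share their treatment, so these values describe the arrays only.

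Ordered by group mean, the lowest group was G6 at day 60 for the 5 collagen chains and Loxl1, untreated tissue at day 5 for Dcn and Lum, and control flank for Mfap4 and Cpz. The span from the lowest to the highest mean was 3.06 for Col1a1, 1.11 for Col1a2, 1.003 for Col3a1, 2.62 for Col5a1, 2.00 for Col5a2, 1.49 for Dcn, 2.40 for Lum and 2.03 for Loxl1, and none is given for Mfap4 and Cpz, whose lowest group was below the filter level. Of the 9 steps between neighbours in that order, 3 exceeded the larger SD of the neighbours for Col1a1, 2 for Col5a1 and Lum, 1 for Col3a1, Dcn and Loxl1, and 0 for Col1a2 and Col5a2.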

How the data were processed

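RNA from mouse flank tissue was hybridised to Affymetrix mouse expression arrays, 78 in all. The authors deposited an intensity for each probe set, the MAS5 signal of GCOS 1.3 per the submitters' processing notes, on a linear scale and scaled to the same trimmed mean on every array; the genome build behind the probe sets is not given in the sources used here. Gene names came from GEO's platform annotation, and probe sets with several symbols were left out. Signals were turned into log2(signal + 16). Probe sets above the 40th percentile of all signals, 331, on at least 6 arrays were kept, and each gene was read from its brightest probe set. The 10 groups were fitted together with limma 3.58.1 (R 4.3.3; lmFit, eBayes with trend), two-sided, with Benjamini-Hochberg adjustment over 14718 genes; a second fit of 26696 probe sets served the members' other probe sets. Besides 14 main comparisons there were 10 secondary ones and 4 tests of whether an antibody effect changed between days. For genes below the filter level on every array of a group, folds are lower bounds against that level. The scripts were tested on simulated data. The number of arrays limits the precision. The members and lists were chosen with earlier results of these data known. All 10 members are described; from each pathway list at most the 2 genes with the largest called difference in a comparison are named, markers are given as counts and summed levels, and the 3 genes most like each member are named.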

Additional observations from a re-analysis of the deposited data

Results flagged for a closer look

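Of 100 pairs of a member and a group, 6 held an array that stood apart from the others of its group, and chance gives about 1 such group in 20. Array 72 of DC101 day 20 was the lowest of its group in Col1a1 at a level of 13.03 (next 13.97), in Loxl1 at 12.68 (next 13.39) and in Cpz at 6.28 (next 9.20). Mfap4 stood apart high on array 97 of control flank at 8.43 (next 6.63), and low on array 12 of G6 day 5 at 8.59 (next 10.34) and on array 58 of G6 day 20 at 8.00 (next 10.77).

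Antibody effects on 3 members differed between days 20 and 60 by the test of the difference in limma. The effect at day 60 minus that at day 20 was -0.92 for G6 on Col3a1 (adjusted p = 0.0166), 0.90 for DC101 on Col5a1 (adjusted p = 0.0475) and -0.77 for DC101 on Dcn (adjusted p = 0.0107). For G6 this was 1 of 10 members beside 0.0747% of all genes. For DC101 it was 2 of 10 beside 18.2%, a share near that of all genes. Under 16 alternatives the Col3a1 call held in 10 and was lost in 6 (adjusted p from 5.62e-05 to 0.407), the Col5a1 call held in 9 and was lost in 7 (adjusted p from 0.00427 to 0.9), and the Dcn call held in 13 and was lost in 3 (adjusted p from 0.00492 to 0.815). Leaving out untreated arrays 51 and 52 was among the settings that ended the Col3a1 and Col5a1 calls, and leaving out untreated array 79 ended that of Col5a1.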

How the results depend on the processing

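Of 2240 member values under 16 alternatives, 2142 kept their direction and side of the threshold, 43 lost a call, 54 gained one and 1 reversed: Col3a1 between untreated days 20 and 60 stood at 0.06 and at -0.38 under quantile normalization (adjusted p = 0.0115). Of 224 counts of called members, taken over all 10 with Mfap4 and Cpz, 196 stayed within 1.5 times and 28 moved. For untreated day 60 against control (3) the count was 1 with quantile normalization and with adjacent arrays averaged, 5 with array weights, without DC101 arrays 21 and 22 and without G6 array 83, and 8 with the RNA ratios as covariates. For G6 against untreated tissue it was 5 with the mean of probe sets, 6 with array weights and 7 with only the compared groups at day 5 (3), 1 with array weights at day 20 (0), and 3 with the RNA ratios at day 60 (6). For DC101 against untreated tissue it was 4 with array weights and 1 with only the compared groups, the RNA ratios or adjacent arrays averaged at day 5 (2). At day 20 (1) it was 2 with the mean of probe sets and 0 with only the compared groups, adjacent arrays averaged or without untreated arrays 51 and 52, and at day 60 (0) it was 2 with array weights and without arrays 93 and 94. For untreated day 20 against day 5 (4) it was 1 with the RNA ratios and 2 with adjacent arrays averaged, and for day 60 against day 20 (7) it was 4 with the RNA ratios. For DC101 against G6 it was 1 at day 5 (0) with array weights, only the compared groups or without arrays 21 and 22, and 0 at day 60 (6) with the RNA ratios. Leaving out arrays 21 and 22, 83, and 93 and 94 was chosen after seeing the data. No paired analysis was possible because the running numbers in the titles are not shared between groups. Mfap4 and Cpz are limited by signal near background.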
